A study of Mus musculus with 16 samples.

Results

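The comparison sets 2 tumors of UVB-exposed mice against 2 whole skin libraries of unexposed mice, taken by their labels as 4 of the 16 RNA sequencing libraries of the series. All 4 were taken at week 25 from female mice of the hairless SKH-1 strain, which is used in work on skin cancer caused by light. The tumor-bearing mice received ultraviolet B (UVB) at 60 mJ/cm2 in 2 sessions per week for 25 weeks, and the whole skin donors received no agent. The series also holds epidermis of exposed and unexposed mice, and the 4 epidermis libraries of week 25 (2 UVB, 2 control) are used below beside the tumor values. The labels name no genotype or allele, no histological type of the tumors and no body site, and do not tell whether each library is from its own animal. P-values therefore measure only the spread between these libraries, which may be technical.

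UVB damages DNA and sets off inflammation in skin, and repeated exposure gives squamous tumors in hairless mice. A tumor excised from skin brings its stroma and immune cells with it, and whole skin holds epidermis, hair follicles, glands, dermis, fat and the thin muscle layer under the skin. In bulk RNA a lower value can come from fewer cells of a type or from less RNA in each cell, and the 2 cannot be told apart.

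Deposited counts summed to 5969142 and 6463603 in tumors 0 and 1, and to 7959503 and 4854612 in whole skin libraries 0 and 1, the numbers being those of the titles. The tumors were alike and the whole skin libraries were not. Of 14661 genes tested, 2.41% differed at least 2-fold between the tumors and 21.2% between the whole skin libraries, where whole skin 1 stood at least 2-fold above whole skin 0 for 1931 genes (13.2%) and at least 2-fold below it for 1183 (8.07%). Part of that gap ran with exon length and with counts per base of exon. The median log2 ratio of whole skin 1 over whole skin 0 was 0.76 for the 1110 genes of up to 1000 bases of exon and -0.64 for the 665 genes over 8000 bases, while tumor 1 over tumor 0 had medians of -0.03 and 0.14 there. By mean counts per base in whole skin, the whole skin median was 0.15 under 0.02, -0.17 at 0.02 to 0.1 and 0.02 at 0.1 to 0.4. It was 0.53 for the 1409 genes at 0.4 to 1 and 0.75 for the 157 genes above 1. Tumor 1 over tumor 0 had medians of -0.02 at 0.4 to 1 and -0.04 above 1. Genes described below are therefore given in all 4 libraries, as CPM (counts scaled to a common library size), in the order 0 then 1. The sizes come from the trimmed mean of M values, TMM, over all 16 libraries.

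**Figure D1:**
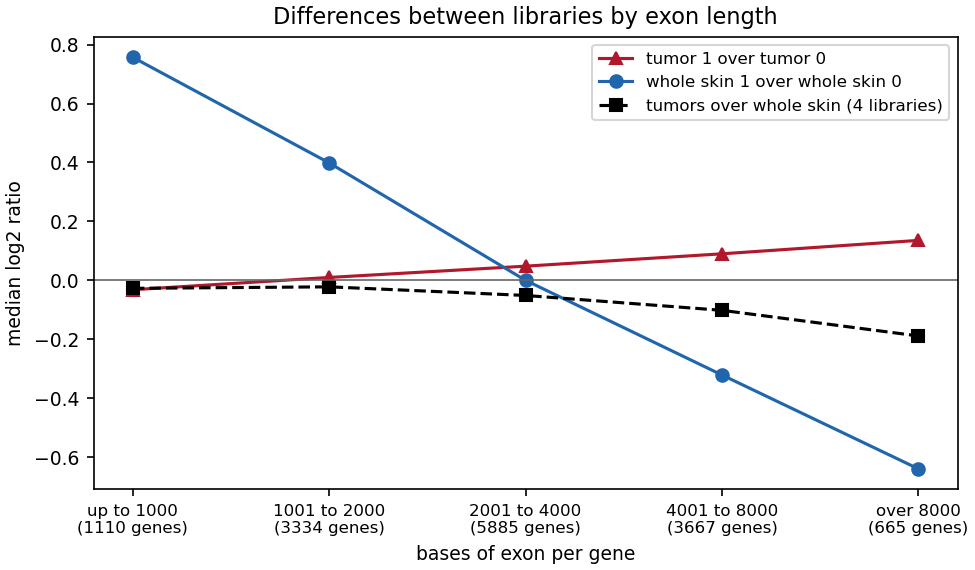
Median log2 ratio between libraries in 5 classes of exon length, for tumor 1 over tumor 0 (red), whole skin 1 over whole skin 0 (blue) and both tumors over both whole skin libraries (black, fitted). The whole skin pair is at 0.76 in the shortest class and at -0.64 in the longest, and the tumor pair stays between -0.03 and 0.14.

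Markers of the labelled tissues were present in both groups. Krt5, a keratin of basal keratinocytes, had 534 and 527 CPM in the tumors and 412 and 551 CPM in whole skin, and Krt14, its partner, had 455 and 453 CPM in the tumors and 343 and 507 CPM in whole skin. Skeletal muscle genes were abundant in both groups as well. The 28 muscle markers summed to 10968 and 11383 CPM in the tumors, against 6491 and 13976 CPM in whole skin, with 119 and 126 CPM in UVB epidermis and 103 and 95.9 CPM in control epidermis. The tumor libraries thus held muscle RNA inside the range of the whole skin libraries, and its part in the other results was not tested.

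No gene passed the test of tumor against whole skin in edgeR's quasi-likelihood fit of the 4 libraries (0 of 14661, 0%, smallest adjusted p = 0.371). At an unadjusted p under 0.05 the tumors were higher for 411 genes (2.8%) and lower for 402 (2.74%). DESeq2 called 14 genes up (0.0759%) and 59 down (0.32%) of 18446 at an adjusted p under 0.05. The quasi-likelihood fit of all 16 libraries called 0 up and 7 down (0.0463% of 15126), namely Wfdc18, BC006965, 2300005B03Rik, Krt77, Lgals12, Skint6 and Acsm1. Of these, BC006965 had 1.297 and 2.07 CPM in the tumors and 19.2 and 52.6 CPM in whole skin, 2300005B03Rik had 6.77 and 8.14 CPM in the tumors and 27.04 and 29.8 CPM in whole skin, and the other 5 are described below. The whole skin pair decides the count: with whole skin 0 left out the fit called 1224 genes up and 1762 down, and with whole skin 1 left out 2727 up and 2761 down, the lone library being assumed to vary like the tumors. Since the direction against each whole skin library can differ, genes are described by order. Both tumors lay above both whole skin libraries for 3296 genes (22.5%) and below both for 1795 (12.2%), and the nearest tumor and whole skin libraries were at least 2-fold apart for 149 of the higher genes (1.02% of those tested) and 144 of the lower (0.982%). These order rules, and the genes named by them, were chosen after values were seen. Order was read from CPM on sizes of all 16 libraries, while the fit of 4 libraries has its own. The median log2 over genes tested was 0.02 in the fit of 16 and -0.06 in that of 4, so order leans slightly to higher. Counts of list members above and below both whole skin libraries are to be read beside the 22.5% and 12.2% of all genes.

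**Figure D2:**
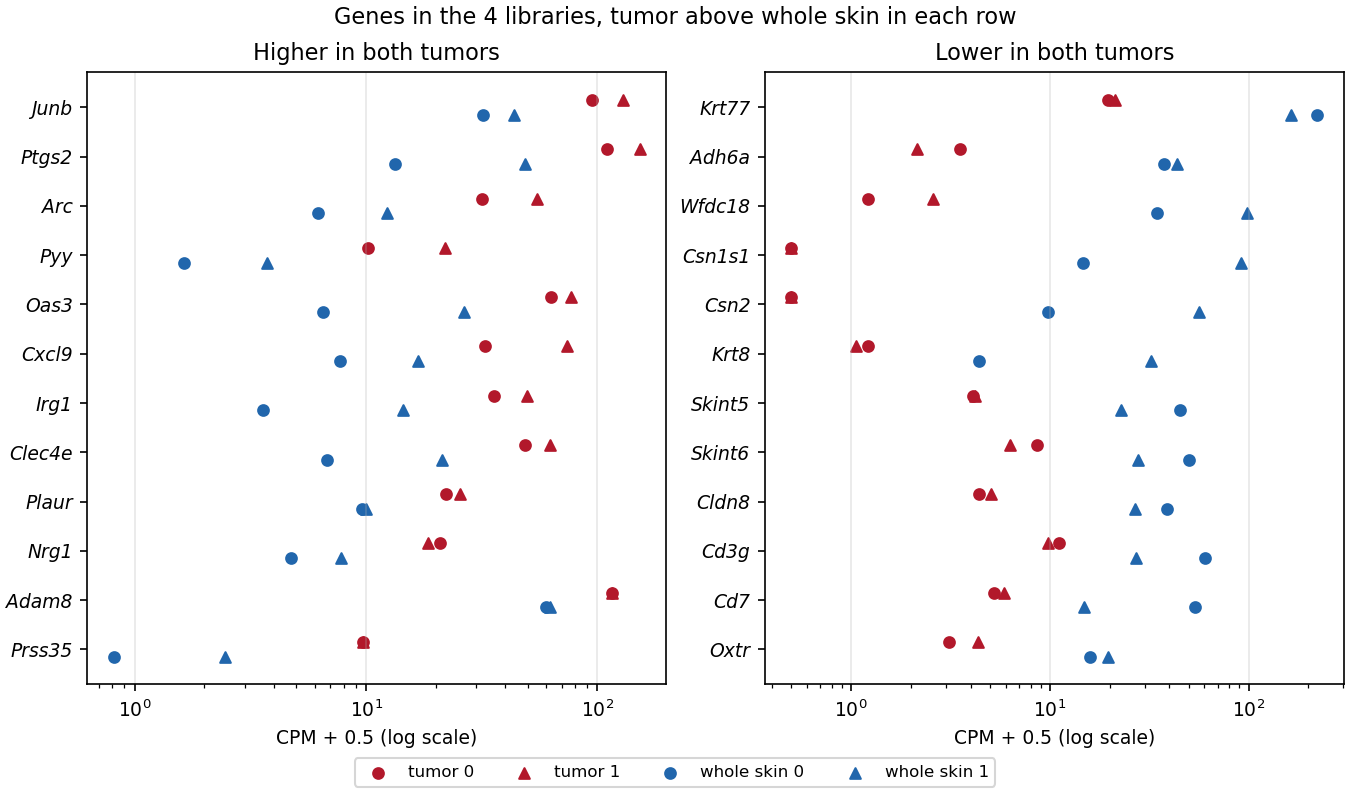
Level of 24 genes in the 4 libraries, as CPM + 0.5 on a log axis, with tumors (red) drawn above whole skin (blue) in each row and circles and triangles for libraries 0 and 1. In the left panel both tumors lie above both whole skin libraries and in the right panel both lie below, and Csn1s1 and Csn2 sit at 0 counts in the tumors.

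Interferon-stimulated genes, which cells switch on when interferons or viral-type nucleic acids are sensed, were nearly all higher in the tumors. Of 31 listed genes 30 were tested. Both tumors exceeded both whole skin libraries for 28 of them and lay below both for 0, with a median log2 of 1.23 beside -0.06 over all genes tested. The median was 2.05 against whole skin 0 alone and 0.72 against whole skin 1 alone. Summed levels were 2064 and 2575 CPM in the tumors and 869 and 1457 CPM in whole skin.

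Oas3, a sensor enzyme that makes oligoadenylates from double-stranded RNA, had 62.4 and 76.7 CPM in the tumors, against 5.99 and 25.9 CPM in whole skin. Its log2 difference was 2.08 ± 0.66 (± standard error, unadjusted p = 0.0216 in edgeR), and it was called by DESeq2 (adjusted p = 0.0362). Oas2, of the same family, had 136 and 151 CPM in the tumors, against 24.3 and 73.3 CPM in whole skin (log2 1.49 ± 0.50). For both enzymes whole skin 0 was the lowest of the 4 libraries and whole skin 1 lay between it and the tumors.

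Cxcl9, a chemokine that draws activated T cells, had 32.3 and 73.5 CPM in the tumors and 7.22 and 16.2 CPM in whole skin. The log2 difference was 2.11 ± 0.56, and DESeq2 called Cxcl9 (adjusted p = 0.0167). Cxcl10 had 27.5 and 50.9 CPM in the tumors and 5.99 and 14.5 CPM in whole skin, and Cxcl11 had 7.35 and 17.8 CPM in the tumors and 2.06 and 3.57 CPM in whole skin. These 3 ligands of the receptor Cxcr3 had the order tumor 1, tumor 0, whole skin 1, whole skin 0 from high to low.

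Stat2, a transcription factor of the interferon pathway, had 164 and 212 CPM in the tumors and 105 and 104 CPM in whole skin, a log2 difference of 0.76 ± 0.21 with an unadjusted p of 0.0137. The 2 whole skin libraries were close to each other for Stat2. The antiviral GTPase Mx1 had 27.4 and 42.4 CPM in the tumors and 11.9 and 16.2 CPM in whole skin. Ifit3 and Ifi27l2a were the exceptions in order. Ifit3 had 26.8 and 32.7 CPM in the tumors and 10.6 and 41.04 CPM in whole skin, so that whole skin 1 was the highest library, and it was highest for Ifi27l2a too (86.2 and 84.2 CPM in the tumors, 48.8 and 116 CPM in whole skin).

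Interferon genes are known to be read through an element in their promoters that a complex with Stat2 and Irf9 binds. The letters TTCNNTTTC of its core, sought on both strands in the 150 bases before the start, stood in 11 of 22 listed interferon genes with a RefSeq promoter (50%) and in 4.61% of all 27025 genes with one. The windows of Oas3 (chr5:120777660-120777809, minus strand) and Ifit1 (chr19:34640739-34640888, plus strand) of GRCm38.p6 are shown, as RefSeq gives them, because these genes separated tumors from whole skin and hold the core. Capitals mark matches on either strand, some of which overlap, and each window ends 1 base before the start.
Oas3: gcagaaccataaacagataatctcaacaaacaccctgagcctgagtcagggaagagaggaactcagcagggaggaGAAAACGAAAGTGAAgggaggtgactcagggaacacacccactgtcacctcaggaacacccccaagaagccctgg
Ifit1: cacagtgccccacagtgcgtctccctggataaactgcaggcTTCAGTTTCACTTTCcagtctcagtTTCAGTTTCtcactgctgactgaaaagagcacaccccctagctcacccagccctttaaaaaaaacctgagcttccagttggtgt
A match of letters is a description and shows no binding. Ifit1, which blocks translation of viral RNA, had 55.04 and 63.1 CPM in the tumors and 5.99 and 34.8 CPM in whole skin.

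Markers of neutrophils, and more weakly of macrophages, were mostly higher in the tumors. Of 12 tested neutrophil markers 10 lay above both whole skin libraries and 1 below both (median log2 1.73, or 3.34 against whole skin 0 and 1.06 against whole skin 1). Their sum was 318 and 393 CPM in the tumors and 85.7 and 281 CPM in whole skin. In epidermis the sum was 282 and 307 CPM with UVB and 133 and 181 CPM in control. Stfa3, the most abundant of these markers in tumors and whole skin, had 111 and 126 CPM in UVB epidermis and 75.9 and 85.6 CPM in control epidermis. The list sum is thus not particular to neutrophils. Of 16 tested macrophage markers 10 were above and 0 below (median log2 0.72), with sums of 1283 and 1526 CPM in the tumors and 754 and 1168 CPM in whole skin. Apoe, the most abundant of them, overlapped, with 227 and 237 CPM in the tumors and 205 and 240 CPM in whole skin.

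Cxcr2, the receptor that guides neutrophils to CXC chemokines, had 28.5 and 32.01 CPM in the tumors and 1.65 and 13.9 CPM in whole skin (log2 1.93 ± 0.89). Fpr1, a receptor for formylated peptides, had 2.59 and 4.69 CPM in the tumors and 0.413 and 0.535 CPM in whole skin (log2 2.84 ± 0.64, unadjusted p = 0.0053). The Fpr1 gap between the nearest libraries was 4.85-fold at a low level. Csf3r, the receptor for granulocyte growth factor, had 25.2 and 46.8 CPM in the tumors and 8.57 and 14.8 CPM in whole skin. Mpo, an enzyme of immature granulocytes, was the marker below both whole skin libraries, with 2.45 and 4.001 CPM in the tumors and 5.78 and 4.82 CPM in whole skin.

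Irg1 (also Acod1), which makes itaconate in activated macrophages, had 35.2 and 49.3 CPM in the tumors and 3.096 and 13.9 CPM in whole skin. The difference was 2.27 ± 0.69 on the log2 scale and DESeq2 called it (adjusted p = 0.0292). Clec4e, a receptor for dead cells and fungal glycolipids, had 47.98 and 61.9 CPM in the tumors and 6.296 and 20.7 CPM in whole skin (log2 1.97 ± 0.57, DESeq2 adjusted p = 0.0358). Both genes separated the groups by over 2-fold even at the nearest libraries. Csf1r, the growth factor receptor that defines macrophages, was less far apart, with 106 and 143 CPM in the tumors and 69.7 and 67.98 CPM in whole skin. Cd163 had 27.1 and 40.6 CPM in the tumors and 12.1 and 16.1 CPM in whole skin, and Chil3 had 8.07 and 14.3 CPM in the tumors and 0.103 and 2.85 CPM in whole skin.

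Among 27 tested inflammatory mediators 18 were above both whole skin libraries and 1 below (median log2 0.95). Ptgs2, the inducible cyclooxygenase that starts prostaglandin synthesis and is known in UVB-exposed skin, had 109 and 152 CPM in the tumors and 12.8 and 48.4 CPM in whole skin. For Ptgs2 the log2 difference was 2.03 ± 0.61 and DESeq2 called it (adjusted p = 0.0197). Ptges, which makes prostaglandin E2 from the product of Ptgs2, had 255 and 287 CPM in the tumors and 121 and 169.9 CPM in whole skin (log2 0.82 ± 0.24, unadjusted p = 0.0163). Both genes of this pathway were ordered alike, with whole skin 0 lowest.

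Il1b, a cytokine of inflammation, had 67.4 and 100.2 CPM in the tumors and 7.43 and 40.3 CPM in whole skin. The chemokine Cxcl2 had 47.4 and 69.3 CPM in the tumors and 4.75 and 25.5 CPM in whole skin, and Cxcl5 had 11.2 and 13.1 CPM in the tumors and 1.24 and 4.82 CPM in whole skin. For Il1b and Cxcl2 whole skin 1 was far above whole skin 0, so the size of the tumor difference depends on the library it is set against. Tnf did not separate, with 18.2 and 23.3 CPM in the tumors and 24.98 and 14.6 CPM in whole skin. Ccl20, a chemokine made by keratinocytes, went the other way, with 5.62 and 5.52 CPM in the tumors and 30.6 and 13.02 CPM in whole skin (log2 -2.06 ± 0.53, unadjusted p = 0.00927).

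Of 14 tested immune checkpoint genes 11 were above both whole skin libraries and 0 below (median log2 0.79, 0.87 against whole skin 0 and 0.79 against whole skin 1). Foxp3, the factor that defines regulatory T cells, had 4.32 and 2.76 CPM in the tumors and 0.929 and 0.892 CPM in whole skin (log2 1.86 ± 0.57, unadjusted p = 0.0193). Ctla4, an inhibitory receptor of T cells, had 9.94 and 11.04 CPM in the tumors and 5.47 and 5.53 CPM in whole skin. These are low levels, but the whole skin libraries lay close together for both. Cd274, which encodes the ligand PD-L1, overlapped, with 28.8 and 50.8 CPM in the tumors and 47.5 and 19.6 CPM in whole skin.

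Genes that degrade and rebuild the extracellular matrix were mostly higher in the tumors. Of 25 tested genes 20 were above both whole skin libraries and 1 below, with a median log2 of 0.84 (1.38 against whole skin 0 and 0.54 against whole skin 1). Plaur, the receptor that holds urokinase at the cell surface, had 21.6 and 24.8 CPM in the tumors and 9.08 and 9.46 CPM in whole skin (log2 1.24 ± 0.33, unadjusted p = 0.0107). The sheddase Adam8 had 115 and 115 CPM in the tumors and 59.6 and 61.6 CPM in whole skin. The 2 whole skin libraries were close to each other for both genes.

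Several matrix metalloproteinases had whole skin 1 near the tumors and whole skin 0 far below. Mmp13, a collagenase, had 271 and 192 CPM in the tumors and 6.09 and 181 CPM in whole skin. Mmp10, a stromelysin, had 60.2 and 49.3 CPM in the tumors and 0.722 and 27.7 CPM in whole skin. Mmp1b had 17.4 and 16.4 CPM in the tumors and 0 and 5.89 CPM in whole skin. Against whole skin 1 alone the Mmp13 gap is small, and Mmp12, the elastase of macrophages, hardly differed in any library (214 and 175 CPM in the tumors, 177 and 173 CPM in whole skin).

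Metalloproteinase genes are known targets of AP-1, the dimer of Fos and Jun proteins. The AP-1 letters TGANTCA stood in the 150 bases before the start of 7 of 17 remodelling genes with a RefSeq promoter (41.2%, namely Mmp1a, Mmp1b, Mmp3, Mmp10, Mmp12, Mmp13 and Plaur), beside 4.96% of all genes with a promoter, both strands being searched. The windows of Plaur (chr7:24462333-24462482, plus strand) and Mmp1b (chr9:7388027-7388176, minus strand) of GRCm38.p6 are shown with matches in capitals. They were picked because both hold the letters and the nearest tumor and whole skin libraries lay over 2-fold apart for both.
Plaur: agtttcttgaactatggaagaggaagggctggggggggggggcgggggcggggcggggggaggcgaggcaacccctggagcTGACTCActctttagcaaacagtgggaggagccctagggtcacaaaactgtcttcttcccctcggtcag
Mmp1b: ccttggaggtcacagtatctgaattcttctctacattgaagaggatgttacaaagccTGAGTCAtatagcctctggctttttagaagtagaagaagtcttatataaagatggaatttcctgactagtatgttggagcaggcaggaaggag
Mmp12 holds the letters too and did not separate the groups.

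Collagen genes leaned higher in the tumors. Of 21 tested collagen genes 13 were above both whole skin libraries and 3 below (median log2 0.53). Col1a1, the main chain of type I collagen, had 147 and 227 CPM in the tumors and 52.3 and 94.7 CPM in whole skin (log2 1.27 ± 0.36, unadjusted p = 0.0136). Col1a2 had 269.6 and 371 CPM in the tumors and 137 and 220.0 CPM in whole skin. Fibroblast markers summed to 1499.5 and 1863 CPM in the tumors and 945 and 1772 CPM in whole skin. Of 17 tested 4 were above and 0 below, where 22.5% and 12.2% of all genes tested were. The part of fibroblasts in the collagen values was not tested. Tnc, an adhesion-modulating matrix protein of wounds, had 227 and 216 CPM in the tumors and 57.5 and 135 CPM in whole skin.

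Of 20 tested AP-1 and immediate early genes 13 were above both whole skin libraries and 0 below, but their median log2 was only 0.35. Junb, a Jun protein, stood out from the list, with 94.4 and 128 CPM in the tumors and 31.5 and 43 CPM in whole skin. Between the groups Junb differed by a log2 of 1.501 ± 0.27 (unadjusted p = 0.00196) and DESeq2 called it (adjusted p = 0.0156). Fos had 136 and 129 CPM in the tumors and 79.8 and 98.3 CPM in whole skin, and Jun had 126 and 129 CPM in the tumors and 94.9 and 101 CPM in whole skin. Arc, an activity-regulated gene best known from neurons, had 31.1 and 54.2 CPM in the tumors and 5.68 and 11.8 CPM in whole skin (log2 2.23 ± 0.48, DESeq2 adjusted p = 0.00464). Junb and Arc separated the groups by over 2-fold at the nearest libraries, and Fos and Jun did not.

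Growth factors that act on the EGF receptor family were in part higher. Nrg1, a ligand of Erbb3, had 20.3 and 17.9 CPM in the tumors and 4.23 and 7.32 CPM in whole skin (log2 1.67 ± 0.43, unadjusted p = 0.00962). Hbegf had 129 and 129 CPM in the tumors and 68.6 and 79.04 CPM in whole skin, and Tgfa had 93.2 and 96.03 CPM in the tumors and 59.7 and 52.99 CPM in whole skin. Btc was lower, with 17.1 and 15.9 CPM in the tumors and 37.9 and 27.7 CPM in whole skin. Of 12 tested ligands and receptors 6 were above and 1 below, beside 22.5% and 12.2% of all genes tested.

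Cell cycle genes were mostly higher by a small amount. Of 30 tested, 21 were above both whole skin libraries and 1 below, beside 22.5% of all genes tested above and 12.2% below, with a median log2 of 0.27 (0.23 against whole skin 0 and 0.24 against whole skin 1), and 1 (Plk1) had an unadjusted p under 0.05. Mki67, the antigen of dividing cells, had 174 and 162 CPM in the tumors and 196 and 119.9 CPM in whole skin. Plk1, a mitotic kinase, had 20.2 and 22.6 CPM in the tumors and 10.6 and 4.996 CPM in whole skin. The Mki67 ranges overlapped and those of Plk1 did not. Of 20 tested genes reported for squamous tumors, 9 were above both whole skin libraries and 3 below, with a median log2 of 0.24. Among those above, Cdkn2a, which encodes p16 and p19Arf, had 39.5 and 40.01 CPM in the tumors and 2.79 and 20.3 CPM in whole skin. Pitx1, a homeobox factor, had 4.75 and 5.93 CPM in the tumors and 0.413 and 1.25 CPM in whole skin (log2 2.68 ± 0.67, unadjusted p = 0.00813).

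The gene with the smallest p was a keratin of the suprabasal epidermis. Krt77 (chr15:101859856-101869618, minus strand, mm10) had 19.2 and 20.7 CPM in the tumors and 222 and 164 CPM in whole skin. Its log2 difference was -3.36 ± 0.26 in the fit of the 4 libraries (unadjusted p = 2.53e-05, adjusted p = 0.371), and it was called by DESeq2 (adjusted p = 5.4e-17) and in the fit of 16 libraries (adjusted p = 0.000563). Values within a group were close, and the nearest libraries lay 7.91-fold apart. Krt1, another suprabasal keratin, had 532 and 543 CPM in the tumors and 367 and 537 CPM in whole skin, and Krt10, its partner, had 417 and 415 CPM in the tumors and 323 and 457 CPM in whole skin. So Krt77 was far lower while Krt1 and Krt10 overlapped between the groups. Duplicates had been removed from the counted alignments, which limits abundant genes. Among genes of at least 500 bases the highest value per library was 1.90 to 2.11 counts per base. Krt1 was near that limit, with 3691 and 3934 counts in the tumors and 3553 and 3008 in whole skin over 2447 bases. Its fold may thus be understated, and the part of the limit in the contrast with Krt77 was not tested.

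Of 30 tested differentiation genes 15 were above both whole skin libraries and 3 below (median log2 0.28). Besides Krt77 the lower ones were Flg2, a filaggrin relative of the cornified layer, with 117 and 117 CPM in the tumors and 223 and 211 CPM in whole skin, and Lce1m, with 44.5 and 43.2 CPM in the tumors and 78.3 and 109 CPM in whole skin. Dsg1b, a desmoglein that holds upper keratinocytes together, was higher, with 67.7 and 80.02 CPM in the tumors and 35.5 and 36.4 CPM in whole skin (log2 0.96 ± 0.23, unadjusted p = 0.00737). Late envelope genes and small proline-rich genes belong to families of near-identical copies, so reads may be split between members.

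Tight junction genes were partly lower. Cldn8, a claudin, had 3.89 and 4.55 CPM in the tumors and 38.5 and 26.4 CPM in whole skin (log2 -3.03 ± 0.39, unadjusted p = 0.000336), and DESeq2 called it (adjusted p = 1.92e-06). In epidermis Cldn8 was low with or without UVB, at 2.44 and 0.179 CPM with UVB and 0.675 and 0.77 CPM in control. Cldn23 had 4.03 and 2.76 CPM in the tumors and 10.9 and 14.5 CPM in whole skin, and Ocln, which encodes occludin, had 16.7 and 15.3 CPM in the tumors and 56.04 and 27.5 CPM in whole skin. Of 16 tested gap and tight junction genes 7 were below both whole skin libraries and 5 above, beside 12.2% and 22.5% of all genes tested. Cldn1, the claudin that seals the epidermis, overlapped, with 229 and 249 CPM in the tumors and 258 and 207 CPM in whole skin.

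Stress keratins and several alarm proteins were near the tumor level in whole skin 1. Krt6b, a keratin of wounded epidermis, had 323 and 338 CPM in the tumors and 22.4 and 303 CPM in whole skin. Krt16 had 324 and 336 CPM in the tumors and 96.6 and 328 CPM in whole skin. S100a8, an alarm protein of neutrophils and stressed keratinocytes, had 84 and 74.5 CPM in the tumors and 27.4 and 83.5 CPM in whole skin. For each of these whole skin 1 was at the tumor level and whole skin 0 was lower. Over the 22 tested alarm and antimicrobial genes the median log2 was 3.09 against whole skin 0 and 0.35 against whole skin 1. The Lce3 genes, which are switched on when the barrier is injured, lay above both, as Lce3e did with 23.1 and 33.4 CPM in the tumors and 0.3096 and 8.74 CPM in whole skin.

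**Figure D3:**
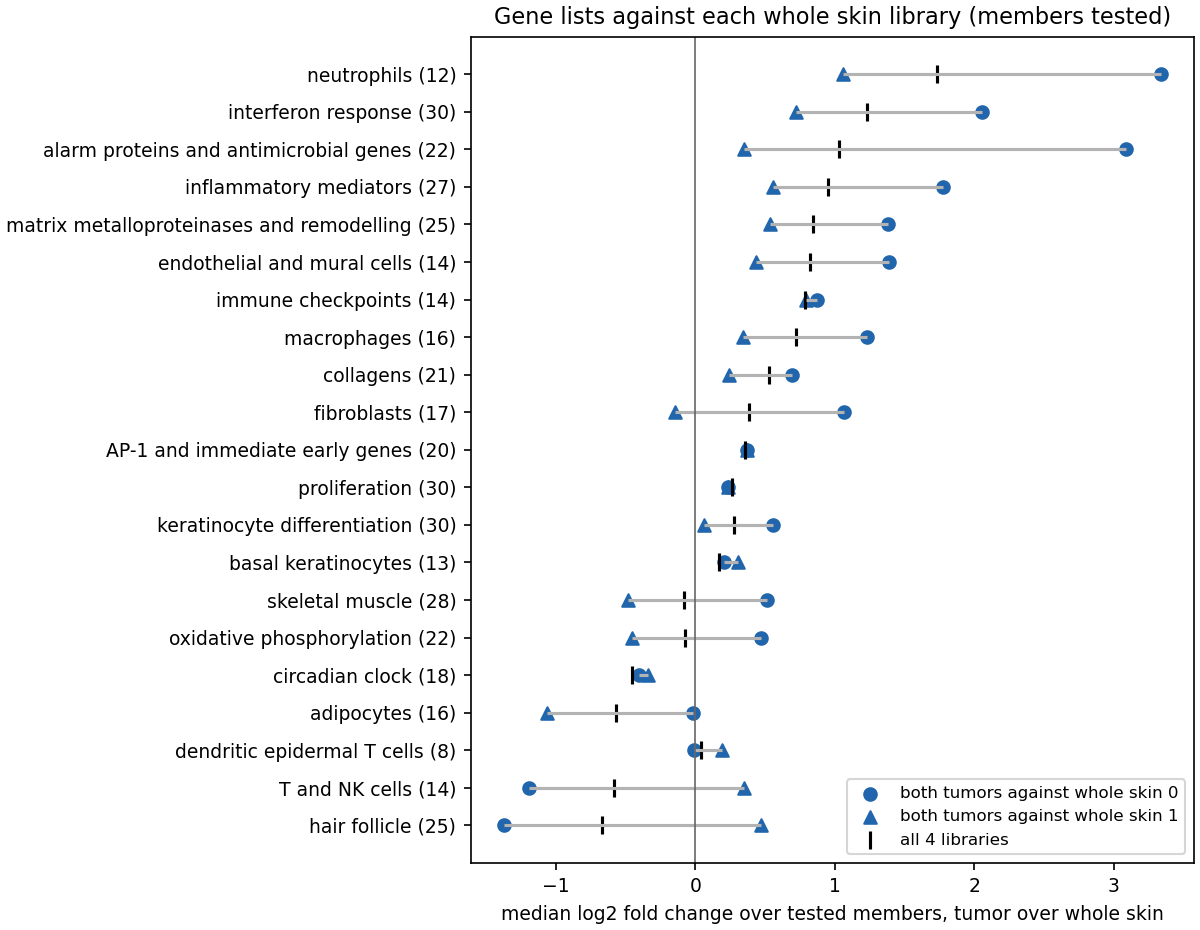
Median log2 fold change over the tested members of 21 gene lists, with both tumors set against whole skin 0 (circles), against whole skin 1 (triangles) and against both (black ticks). Neutrophil, interferon and matrix lists lie right of 0 against either library, the circadian clock list lies left of it against either, and T and NK cell, hair follicle and muscle lists are among those that change sides.

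Markers of the gamma delta T cells of mouse epidermis did not share 1 direction. Of 8 tested 3 were above both whole skin libraries and 2 (Cd7 and Xcl1) below, with a median log2 of 0.04 and sums of 143 and 174 CPM in the tumors and 204 and 137 CPM in whole skin. The most abundant member of this list is Skint1, a gene of keratinocytes that was among those above. The counts and sums are thus not of T cell genes alone. Some single genes tied to these cells were lower. Skint genes encode butyrophilin-like proteins of keratinocytes, of which Skint1 selects these T cells in the thymus. Of 11 tested Skint genes, listed after values were seen, 6 were below both whole skin libraries and 1 above, a count that does not stand on its own as the list followed the values. Skint5 had 3.602 and 3.73 CPM in the tumors and 44.7 and 22.3 CPM in whole skin (log2 -3.28 ± 0.48, unadjusted p = 0.000678, DESeq2 adjusted p = 1.64e-06). Skint6 had 8.07 and 5.79 CPM in the tumors and 49.7 and 27.1 CPM in whole skin, and was called in the fit of 16 libraries (adjusted p = 0.0499). Skint1 itself had 51.01 and 60.4 CPM in the tumors and 43.9 and 39.8 CPM in whole skin, so the members did not share 1 order, and reads shared by its near-identical members leave single values uncertain.

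Cd3g, a chain of the T cell receptor complex, had 10.7 and 9.24 CPM in the tumors and 59.97 and 26.6 CPM in whole skin (log2 -2.21 ± 0.48, DESeq2 adjusted p = 0.0053). Cd7, a surface protein of T and NK cells, had 4.75 and 5.38 CPM in the tumors and 53.3 and 14.3 CPM in whole skin (log2 -2.83 ± 0.69, DESeq2 adjusted p = 0.0022). Xcl1, a chemokine of activated T cells, had 1.87 and 1.66 CPM in the tumors and 11.2 and 5.35 CPM in whole skin. All 3 were lower than in either whole skin library, with whole skin 0 the highest.

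Prf1, which encodes the pore protein perforin, had 0.576 and 0.6898 CPM in the tumors and 14.8 and 1.96 CPM in whole skin. The helper T cell marker Cd4 overlapped, with 5.91 and 13.4 CPM in the tumors and 6.296 and 4.46 CPM in whole skin, and Gzmb, a killer cell protease, was higher, with 9.51 and 7.31 CPM in the tumors and 0.826 and 5.17 CPM in whole skin. Of 14 tested T and NK cell markers 5 were below both whole skin libraries and 3 above, beside 12.2% and 22.5% of all genes tested. Their median log2 of -0.58 was -1.20 against whole skin 0 and 0.35 against whole skin 1. Their sum was 80.4 and 106 CPM in the tumors and 231 and 104 CPM in whole skin, so its direction depends on the whole skin library.

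Genes of milk and of glandular epithelium had low or no counts in the tumors. A list of 20 such genes was made after this was seen, and 14 passed the filter on low counts, the caseins among them only through whole skin, so its counts and median are not given as support. The sum of the list was 71.8 and 77.1 CPM in the tumors, 221 and 664 CPM in whole skin, 76.6 and 78.2 CPM in UVB epidermis and 103 and 126 CPM in control epidermis. Whole skin 1 was thus highest, whole skin 0 next, and the tumors were at the level of UVB epidermis.

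The casein genes Csn1s1, Csn2, Csn3 and Csn1s2a, which encode the main milk proteins, had 0 counts in both tumors. Csn1s1 (chr5:87666208-87682577, plus strand) had 14.2 and 91.3 CPM in whole skin, so it was at least 67.4-fold lower in the tumors than in whole skin 0 and at least 432-fold lower than in whole skin 1, taking 3 counts over both tumors as the limit that 0 counts allow. Csn2 (chr5:87692619-87699425, minus strand) had 9.29 and 55.7 CPM in whole skin and was at least 43.9-fold lower in the tumors than in whole skin 0 and 263-fold than in whole skin 1. Csn3 (chr5:87925633-87932264, plus strand) had 8.77 and 59.6 CPM in whole skin and was at least 41.5-fold lower in the tumors than in whole skin 0 and 282-fold than in whole skin 1. Csn1s2a had 1.34 and 13.2 CPM in whole skin. Each casein was detected in both whole skin libraries and was higher in whole skin 1, and DESeq2 called all 4 genes (adjusted p = 0.0109 for Csn1s1 and 0.0197 for Csn2).

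Casein promoters are known to bind Stat5, the factor that prolactin activates. The letters TTCNNNGAA, sought on both strands, stood in the 150 bases before the start of 4 of 16 mammary genes with a RefSeq promoter (25%, namely Csn1s1, Csn2, Glycam1 and Prlr) and in 4.77% of all genes with a promoter. As the list was made after values were seen, this share is a description only. The windows of Csn1s1 (chr5:87666058-87666207, plus strand) and Csn2 (chr5:87699426-87699575, minus strand) of GRCm38.p6 are shown because these genes had no count in the tumors and hold the letters, with matches in capitals. Csn3 and Csn1s2a had no count in the tumors either and are not among the genes with a match.
Csn1s1: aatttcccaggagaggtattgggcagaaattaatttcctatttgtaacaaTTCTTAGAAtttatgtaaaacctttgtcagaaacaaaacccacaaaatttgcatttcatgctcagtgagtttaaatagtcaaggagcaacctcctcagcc
Csn2: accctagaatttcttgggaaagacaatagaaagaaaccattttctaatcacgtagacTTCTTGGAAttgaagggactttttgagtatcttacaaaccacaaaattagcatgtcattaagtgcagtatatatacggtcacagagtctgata
Prlr, the prolactin receptor, was itself detected in every library, with 20.2 and 26.5 CPM in the tumors and 73.5 and 36.4 CPM in whole skin.

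Wfdc18, a secreted protease inhibitor of mammary gland, had 0.7205 and 2.07 CPM in the tumors and 34.3 and 97.8 CPM in whole skin. Its log2 difference was -5.61 ± 0.75 (unadjusted p = 0.000412), and it was called in the fit of 16 libraries (adjusted p = 0.0452) and by DESeq2 (adjusted p = 3.07e-16). Krt8, a keratin of simple epithelia, had 0.7205 and 0.552 CPM in the tumors and 3.92 and 31.8 CPM in whole skin, and its partner Krt18 had 3.46 and 2.07 CPM in the tumors and 8.05 and 57.3 CPM in whole skin. These genes share the pattern of the caseins, with whole skin 1 the highest library.

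Oxtr, the oxytocin receptor, had 2.59 and 3.86 CPM in the tumors and 15.4 and 19.1 CPM in whole skin (log2 -2.49 ± 0.43, unadjusted p = 0.00152). Tnfsf11, the ligand RANKL, had 1.15 and 1.24 CPM in the tumors and 7.74 and 32.3 CPM in whole skin. Elf5, a factor of milk-forming and other glandular cells, had 9.51 and 11.04 CPM in the tumors and 15.2 and 40.5 CPM in whole skin. Oxtr was unlike the caseins in having near-equal levels in the whole skin libraries. The part that glandular tissue in the whole skin libraries plays in other lower genes was not tested.

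Genes outside these lists were also lower. Adh6a, an alcohol dehydrogenase, had 3.03 and 1.66 CPM in the tumors and 36.9 and 43 CPM in whole skin (log2 -4.16 ± 0.43, unadjusted p = 0.000114, DESeq2 adjusted p = 1.51e-12). Sema3d, a secreted guidance protein, had 17.7 and 18.5 CPM in the tumors and 109 and 59.9 CPM in whole skin (log2 -2.31 ± 0.37). Acsm1, an acyl-CoA synthetase, had 0 counts in both tumors and 6.502 and 3.57 CPM in whole skin, which puts it at least 30.8-fold lower than in whole skin 0 and 16.9-fold lower than in whole skin 1. For Adh6a the whole skin libraries were close and the nearest libraries lay 12.2-fold apart.

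Fat markers were lower mainly against whole skin 1. Of 16 tested adipocyte genes 4 were below both whole skin libraries and 0 above, beside 12.2% and 22.5% of all genes tested. Their sums were 1526 and 1822 CPM in the tumors and 1441 and 2834 CPM in whole skin. Adipoq, the hormone adiponectin, had 27.7 and 44.6 CPM in the tumors and 61.1 and 182 CPM in whole skin (log2 -1.82 ± 0.55, DESeq2 adjusted p = 0.0423). Lgals12, a galectin of fat cells and sebocytes, had 11.2 and 14.5 CPM in the tumors and 41.2 and 43.7 CPM in whole skin (log2 -1.804 ± 0.29), and was called in the fit of 16 libraries (adjusted p = 0.0499). Lgals12 differed little within either group, unlike Adipoq.

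Clock genes leaned low. Of 18 tested 11 were below both whole skin libraries and 2 above (median log2 -0.46, -0.40 against whole skin 0 and -0.34 against whole skin 1). Per2, a repressor of the circadian loop, had 24.6 and 35.7 CPM in the tumors and 150.4 and 47.3 CPM in whole skin. Dbp, an output gene of the clock, had 17.1 and 26.2 CPM in the tumors and 34.5 and 35.9 CPM in whole skin, and Tef, of the same family, had 188 and 221 CPM in the tumors and 312 and 281 CPM in whole skin. The labels give no hour of sampling, so group and hour cannot be told apart.

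**Figure D4:**
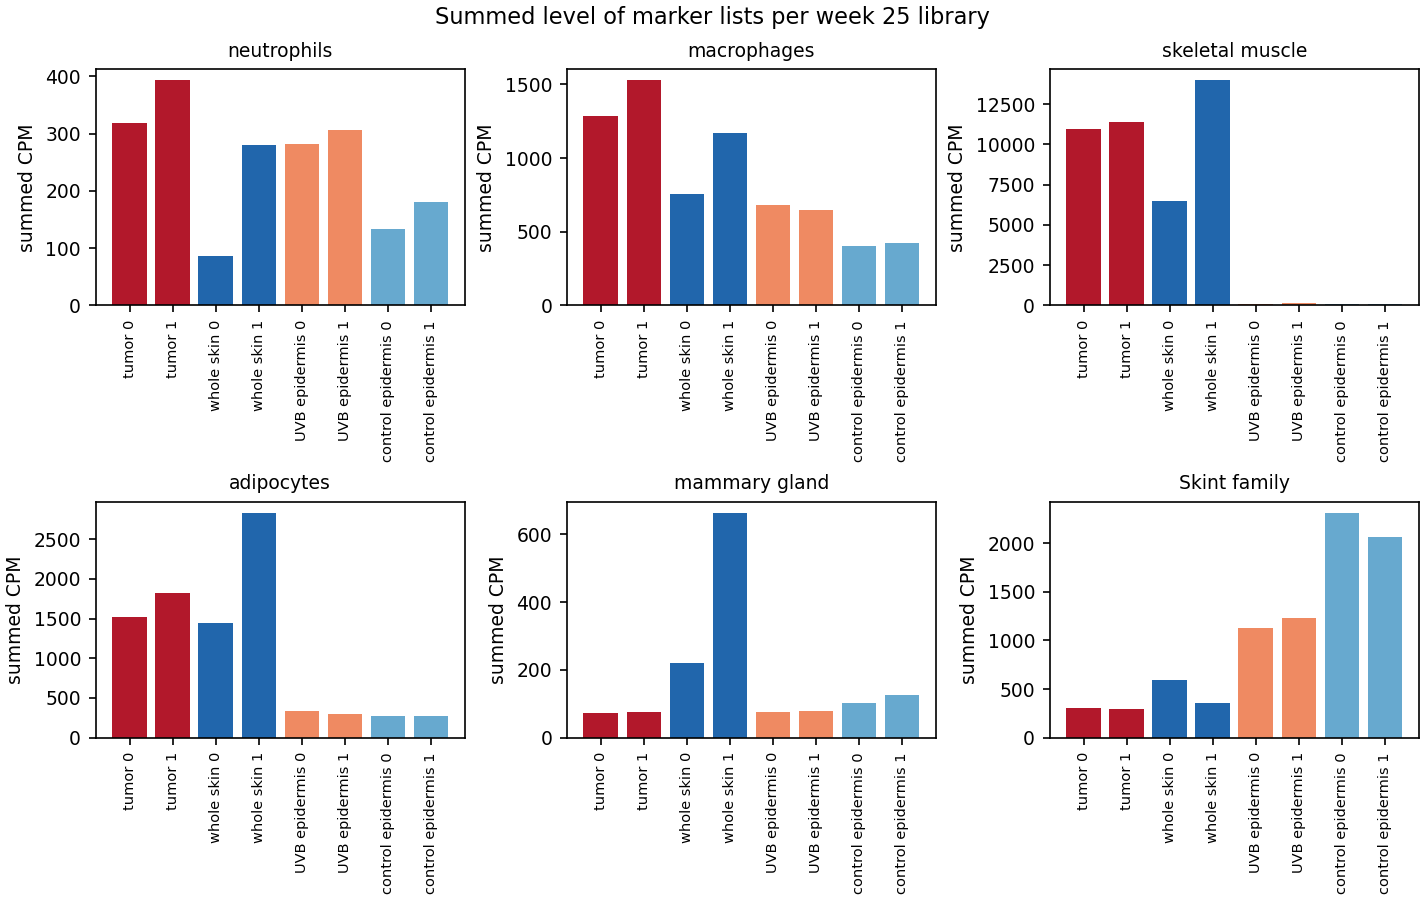
Summed CPM of 6 marker lists in the 8 libraries of week 25, with tumors in red, whole skin in dark blue, UVB epidermis in orange and control epidermis in light blue. Muscle markers reach 10968 and 11383 CPM in the tumors and stay at or below 126 CPM in epidermis, mammary gland genes are highest in whole skin 1 at 664 CPM, and Skint genes are highest in control epidermis.

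Some of the genes farthest apart between the 2 whole skin libraries were higher in whole skin 1. Chil4, a chitinase-like protein of inflamed mouse epithelia, had 326 and 341 CPM in the tumors and 0.3096 and 316 CPM in whole skin. Il24, a cytokine of injured keratinocytes, had 87.03 and 61.1 CPM in the tumors and 0.3096 and 53.3 CPM in whole skin. Ankrd1, a target of YAP in many cells, had 141 and 145 CPM in the tumors and 1.14 and 71.4 CPM in whole skin, and was near 0 in epidermis (0 and 0.893 CPM with UVB and 0.169 and 0 CPM in control). In these genes whole skin 1 was, as a ratio, far nearer to the tumors than to whole skin 0, where they were near 0, so a tumor difference rests mainly on whole skin 0.

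In the other direction, Hmcn1, a very long extracellular matrix protein, had 21.04 and 25.4 CPM in the tumors and 204 and 36.8 CPM in whole skin. Kmt2a, a histone methyltransferase with a long transcript, had 97.7 and 108 CPM in the tumors and 378 and 81.9 CPM in whole skin. Zbtb16, a transcription factor, had 13.4 and 19.2 CPM in the tumors and 54.6 and 10.9 CPM in whole skin. Here whole skin 1 was again the nearer to the tumors, and whole skin 0 was high. Of 22 tested oxidative phosphorylation genes all 22 had both tumors above whole skin 0 and all 22 had both below whole skin 1. Over all genes tested these shares were 49.5% and 36.3%. The list's median log2 of whole skin 1 over whole skin 0 was 0.95, beside 0.76 for all genes of up to 1000 bases of exon. The parts of exon length and of counts per base in this split were not tested.

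The tumor difference was then set against the UVB difference in epidermis of the same week, which shares no library with it. In the fit of 16 libraries UVB epidermis had 1087 genes up (7.19%) and 692 down (4.57%) against control epidermis, of 15126 tested. The difference between the 2 differences was called for 1 gene up (0.00661%) and 13 down (0.0859%). No gene was called when only the 8 libraries of week 25 were fitted (edgeR, 929 up and 1385 down at an unadjusted p under 0.05), and DESeq2 called 144 up and 181 down.

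Of the 13 genes with a negative difference 12 rose in UVB epidermis, and 7 of these (Clec7a, Ctss, Cd84, Lilr4b, Cd300a, Mpeg1 and Mmp12) are known from macrophages and dendritic cells. Clec7a, the receptor for fungal beta-glucan, had 87.6 and 75.1 CPM in the tumors and 65.3 and 54.6 CPM in whole skin, beside 9.01 and 11.4 CPM in UVB epidermis and 0.169 and 0 CPM in control epidermis. Its log2 difference was 0.44 ± 0.28 between tumor and whole skin and 6.66 ± 0.57 in epidermis, and these differed by -6.22 ± 0.67 (adjusted p = 0.00534). Mmp12 had 8.85 and 6.25 CPM in UVB epidermis and 0.506 and 0.154 CPM in control epidermis, beside the even tumor and whole skin levels given above, and its differences differed by -4.32 ± 0.71 (adjusted p = 0.0442). Clec7a and Mmp12 were thus raised by UVB in epidermis and overlapped or lay close between tumor and whole skin.

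Ctss, the protease that trims invariant chain in antigen presentation, had 166 and 175 CPM in the tumors and 132 and 135 CPM in whole skin, beside 66.7 and 62.5 CPM in UVB epidermis and 8.94 and 5.698 CPM in control epidermis. Mpeg1, a pore protein of macrophages, had 168 and 181 CPM in the tumors and 189.7 and 109 CPM in whole skin, beside 16.6 and 15.5 CPM in UVB epidermis and 1.86 and 0.308 CPM in control epidermis. In both genes the order was tumor and whole skin above UVB epidermis and UVB epidermis above control epidermis. Macrophage markers as a whole summed to 681 and 647 CPM in UVB epidermis and 403 and 422 CPM in control epidermis. Much of this sum was Apoe, with 246 and 261 CPM in UVB epidermis and 229 and 232 CPM in control epidermis, so it is not particular to macrophages. Over the 16 members the median log2 in epidermis was 3.43. Of them 9 were called up and 0 down, beside 7.19% and 4.57% of all genes tested. The part of cell makeup in these differences was not tested.

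Cd84, a receptor of leukocytes, had 68.4 and 64.4 CPM in the tumors and 73.6 and 47.5 CPM in whole skin, beside 15.4 and 8.39 CPM in UVB epidermis and 1.35 and 0.77 CPM in control epidermis. Cd300a, an inhibitory receptor, had 30.8 and 34.4 CPM in the tumors and 32.9 and 25.5 CPM in whole skin, beside 1.83 and 1.96 CPM in UVB epidermis and 0 and 0 CPM in control epidermis. Lilr4b, an immunoglobulin-like receptor, had 48.3 and 54.8 CPM in the tumors and 32.2 and 30.7 CPM in whole skin, beside 3.36 and 2.68 CPM in UVB epidermis and 0 and 0 CPM in control epidermis. Tumor and whole skin overlapped for Cd84 and Cd300a, and both tumors lay above both whole skin libraries for Lilr4b.

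Cd200, a ligand that restrains myeloid cells, had 71.3 and 81.8 CPM in the tumors and 64.8 and 56.9 CPM in whole skin, beside 79.7 and 74.1 CPM in UVB epidermis and 17.04 and 16.8 CPM in control epidermis. Nceh1, a hydrolase of cholesterol esters, had 63.3 and 70.9 CPM in the tumors and 59.4 and 51.03 CPM in whole skin, beside 53.4 and 38.2 CPM in UVB epidermis and 5.23 and 3.08 CPM in control epidermis. Cd200 was about as abundant in UVB epidermis as in the tumors, and Nceh1 was somewhat less so. For Dapk1, a kinase linked to cell death, the values were 48.6 and 56.6 CPM in the tumors and 47.1 and 50.8 CPM in whole skin, beside 22.3 and 18.2 CPM in UVB epidermis and 4.55 and 3.54 CPM in control epidermis. For Zcchc24 they were 104 and 137 CPM in the tumors and 63.3 and 171 CPM in whole skin, beside 16.2 and 17.9 CPM in UVB epidermis and 1.01 and 0.616 CPM in control epidermis. Both overlapped between tumor and whole skin.

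The keratin gene Krt77 was among the 14 too, as were Hpgd and Cyp26b1. Krt77 had 433 and 461 CPM in UVB epidermis and 573 and 523 CPM in control epidermis. Its log2 difference there was -0.29 ± 0.26, against -3.27 ± 0.29 between tumor and whole skin, so that the 2 differed by -2.98 ± 0.39 (adjusted p = 0.0202). Hpgd, which inactivates prostaglandins, had 44.7 and 59.3 CPM in the tumors, 30.1 and 36.04 CPM in whole skin, 72.7 and 109 CPM in UVB epidermis and 7.42 and 8.47 CPM in control epidermis. Cyp26b1, which breaks down retinoic acid, was the 1 gene with a positive difference: it fell in UVB epidermis to 45.2 and 43.8 CPM, against 202 and 209 CPM in control epidermis, and had 28.7 and 40.1 CPM in the tumors and 26.5 and 24.1 CPM in whole skin. Krt77 was lower in tumors beyond its UVB difference in epidermis, while Cyp26b1 was at a like level in tumors and whole skin.

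**Figure D5:**
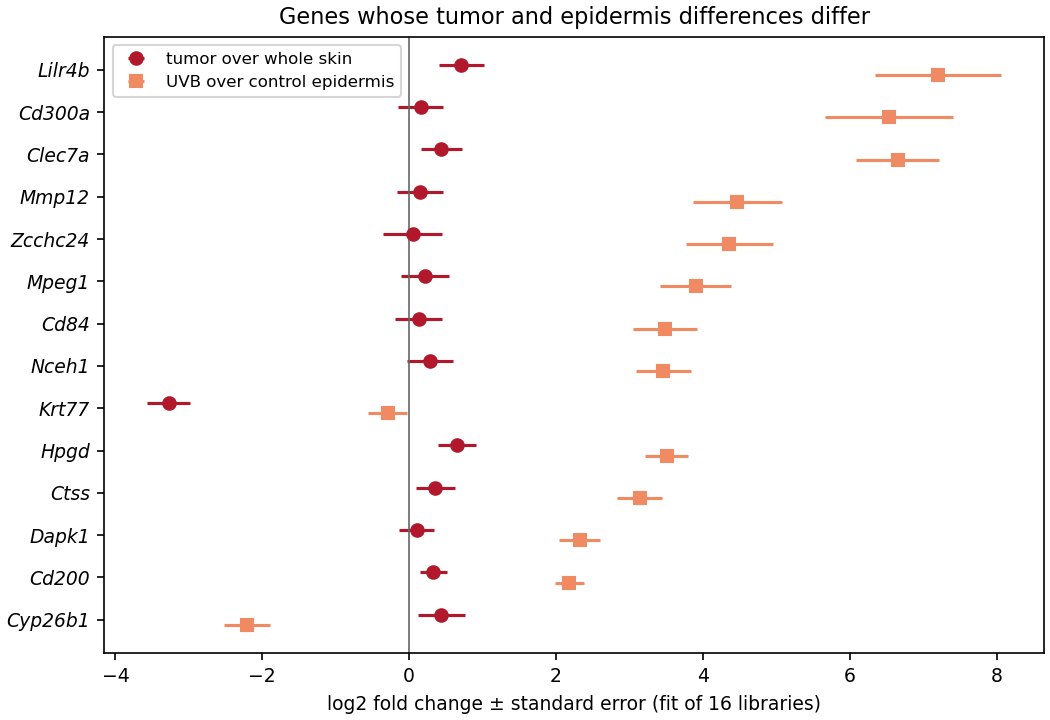
Log2 fold change ± standard error of the 14 called genes, for tumor over whole skin (red circles) and UVB over control epidermis (orange squares), both from the fit of 16 libraries. The red points lie between 0.05 and 0.71 except Krt77 at -3.27, and 12 of the 14 orange points lie right of 2.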

How the data were processed

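Per the labels' protocols, a Qiagen AllPrep kit gave the RNA and Illumina protocols the libraries. The authors deposited whole-number counts of reads per gene, 24421 genes with mm10 coordinates in 16 libraries, all of whose columns were mapped by title. HISAT2, Picard, featureCounts and DESeq2 are named in the submitters' processing notes, without versions. Per the file headers, the counted alignments had duplicates removed, which limits abundant genes. How strand and reads with several matches were treated, and the annotation release, is not given in the sources used here, so near-identical families (Sprr, Lce, Stfa, Skint, caseins) and overlapping or antisense genes are uncertain.

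Counts were tested in R 4.3.3 with edgeR 4.0.16 (quasi-likelihood F test, TMM, filterByExpr with a minimum count of 10 and a minimum total of 15, prior count 0.125, adjusted p by Benjamini-Hochberg over all genes tested, called under 0.05) on the 4 libraries (2 residual degrees of freedom; coefficient of biological variation 29.8%). The difference from epidermis came from 1 fit of 16 libraries in 8 groups (8 residual degrees of freedom, 23.0%). Standard errors are the log2 value over the root of F. DESeq2 1.42.0 was an alternative. The scripts were checked on simulated data. Depth limits low genes: 3 counts was the floor for 0, and such limits cover counting error only.

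The rule for named genes takes the 15 largest called changes in each direction at 5 CPM or more, the member of each list with the smallest p, the most abundant marker, 8 genes of the difference from epidermis and 8 in each direction between the whole skin libraries. As no gene was called, others were chosen after their values were seen. A few listed genes are not reported here. Members, lists and tests were chosen with earlier results of these data known. Lists are described by counts and medians.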

Additional observations from a re-analysis of the deposited data

Results flagged for a closer look

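The tumor difference and the UVB difference in epidermis differed, by the test of the difference itself, for the 14 genes given at the end of the report, with differences in log2 units as follows. Among genes known from macrophages and dendritic cells the values were -6.49 for Lilr4b, -6.38 for Cd300a, -6.22 for Clec7a, -4.32 for Mmp12, -3.68 for Mpeg1, -3.35 for Cd84 and -2.79 for Ctss. The others were -4.32 for Zcchc24, -3.19 for Nceh1, -2.98 for Krt77, -2.85 for Hpgd, -2.22 for Dapk1, -1.85 for Cd200 and 2.65 for Cyp26b1. In control epidermis Lilr4b and Cd300a had 0 counts in both libraries, so their fitted differences depend on the prior count and are no measure of size. Clec7a (0.169 and 0 CPM) and Mmp12 (0.506 and 0.154 CPM) were near 0 there too, so the sizes of their differences rest on few reads. The adjusted p-values in edgeR's quasi-likelihood test were between 0.00534 (Clec7a) and 0.0499 (Zcchc24 and Cyp26b1).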

How the results depend on the processing

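Tumor against whole skin had 0 genes up and 0 down in the edgeR fit of 4 libraries, and also under DESeq2 size factors, under scaling from genes below the duplicate limit, at a mean of 5 CPM and with exon length corrected (an alternative added after seeing the data). Without the filter on low counts it had 1 gene down, DESeq2 gave 14 up and 59 down, and 16 libraries in 1 fit gave 7 down. Whether the numbers 0 and 1 pair the libraries is not known. The correlation over genes of the tumor gap with the whole skin gap was -0.03. It cannot decide this, since the tumors differed little (2.41% of genes at least 2-fold apart). The fit with the replicate number as a block gave 144 up and 91 down. Leaving out 1 library gave 0 to 2727 up and 5 to 2761 down. The difference from epidermis had 1 up and 13 down. It had 0 up with DESeq2 size factors, with scaling below the duplicate limit, at 5 CPM and with length corrected, 22 up and 90 down without the filter, 144 up and 181 down in DESeq2, and 0 up and 0 down with only 8 libraries. With 1 library left out it had 0 to 641 up and 0 to 624 down. UVB epidermis had 1087 up and 692 down, 2233 up and 2329 down in its 4 libraries alone, 1328 down in DESeq2, and 42 to 505 up and 13 to 68 down with 1 library left out. Replicate blocks changed no other count by over 1.5 times. Of single genes, the sign of the tumor difference turned for Apoe (0.0089 without the filter, 0.064 with 16 libraries) and Zcchc24 (0.12 with the block, 0.048 with 16 libraries). Leaving out 1 library turned 20 genes, with ranges of Dst -1.29 to 0.0704, Krt1 -0.0614 to 0.47, Tchh -0.20 to 0.78, Gsn -0.18 to 0.26, Car3 -0.45 to 0.42, Acta2 -0.32 to 0.21, Mbp -0.35 to 0.0236, Apoe -0.11 to 0.0996, Stfa3 -0.24 to 0.83, Mcpt4 -0.38 to 0.79, Dct -1.20 to 0.14, Mitf -0.50 to 0.17, Alas2 -0.0409 to 2.10, Cox7a1 -0.96 to 0.52, Cd300a -0.0969 to 0.29, Cd84 -0.23 to 0.42, Dapk1 -0.0593 to 0.12, Zcchc24 -0.57 to 0.85, Mpeg1 -0.20 to 0.61 and Mmp12 -0.0907 to 0.24. The cause of these changes was not tested, except that a fit without either whole skin library takes its spread from the tumors alone. With 2 libraries a group and totals of 4854612 to 7959503 counts, low genes are imprecise, and genes near the duplicate limit have understated folds.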

Other observations

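Some genes outside the groups above also kept both tumors apart from both whole skin libraries, all chosen after their values were seen. Pyy, the gut hormone peptide YY, had 9.65 and 21.4 CPM in the tumors and 1.14 and 3.21 CPM in whole skin (log2 2.798 ± 0.70, DESeq2 adjusted p = 0.0208). Prss35, a serine protease, had 9.22 and 9.24 CPM in the tumors and 0.3096 and 1.96 CPM in whole skin, the widest gap between nearest libraries (4.7-fold) among higher genes of at least 5 CPM with an assigned name. Gjb1, a connexin best known from liver and nerve, had 9.08 and 9.66 CPM in the tumors and 0.619 and 2.85 CPM in whole skin. Tll1, a protease that processes procollagen, had 10.4 and 8.42 CPM in the tumors and 2.48 and 2.85 CPM in whole skin. All 4 genes are at low levels, where few reads decide a value.

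Mast cell genes did not share 1 order. Tpsab1, a tryptase, had 13.7 and 31.7 CPM in the tumors and 0.929 and 6.07 CPM in whole skin (log2 2.68 ± 0.90, DESeq2 adjusted p = 0.0493), while Cpa3, a carboxypeptidase of the same granules, had 41.1 and 66.2 CPM in the tumors and 22.6 and 61.9 CPM in whole skin. Mrgprb2, the receptor for mast cell secretagogues, was lower, with 3.602 and 5.105 CPM in the tumors and 35.9 and 6.96 CPM in whole skin. Of nerve and glial genes, Calca, which encodes the peptide CGRP, had 2.31 and 8.28 CPM in the tumors and 27.4 and 136 CPM in whole skin (log2 -4.01 ± 0.96, DESeq2 adjusted p = 1.64e-06), and Sox10, a factor of Schwann cells and melanocytes, had 1.73 and 2.21 CPM in the tumors and 7.33 and 16.4 CPM in whole skin. The list of nerve and Schwann cell markers, which holds Sox10 but not Calca, did not share 1 order. Of its 14 tested members 5 were below both whole skin libraries and 2 above, beside 12.2% and 22.5% of all genes tested (median log2 -0.17). Mbp, its most abundant member, overlapped, with 78.7 and 105 CPM in the tumors and 88.1 and 107 CPM in whole skin. Lgr6, a receptor of skin stem cells, had 1.15 and 2.897 CPM in the tumors and 31.7 and 6.24 CPM in whole skin (log2 -3.32 ± 0.93, DESeq2 adjusted p = 0.00769), with whole skin 0 well above whole skin 1.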
